A study of Mus musculus with 14 samples.

Results

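The genes described here encode the proteins of the desmosomes, adherens junctions, tight junctions and gap junctions. They were chosen by symbol, from a list made with earlier results of these data known. The list named the desmocollins, desmogleins, plakophilins, Jup, Dsp and Perp, the cadherins Cdh1 and Cdh3, the catenins, the nectins and the numbered claudins. It also named Ocln, the zonula occludens (Tjp) genes, Cgn, F11r, Marveld2, Marveld3 and the alpha, beta and gamma connexins. Of the 55291 symbols counted, 74 fitted, and all 74 were protein-coding genes of the GENCODE M21 annotation of the mouse genome build GRCm38. They comprised 8 desmosomal cadherins, 7 desmosomal plaque genes (with Perp), 12 genes for classical cadherins, catenins and nectins, 23 claudins, 8 other tight junction genes and 16 connexins. Bulk RNA-Seq had been performed on 14 samples of esophagus from 9 mice of the strain C57BL/6, without a transgene or treatment named in the labels. Epithelium was sequenced from 5 aged mice (O1, O2, O3, OF5 and OM8, at 18 months or more by the series description) and 4 young mice (Y1, Y3, YF5 and YM4, at 4 months or less). Stroma was sequenced from the aged mice O1, O2 and O3 and the young mice Y1 and Y3. The question put to the genes was how their levels differ between epithelium and stroma, and between old and young mice within each layer.

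Stratified squamous epithelia such as that of the esophagus withstand friction through desmosomes, in which desmogleins and desmocollins of neighbouring cells bind each other and are tied by plakoglobin, plakophilins and desmoplakin to keratin filaments. Adherens junctions join classical cadherins and nectins to actin through catenins and afadin. Tight junctions are strands of claudins and occludin on a scaffold of zonula occludens proteins and restrict passage between cells, and gap junctions are channels of connexins through which small molecules pass from cell to cell. Muscle, vessels and nerves build their own junctions from other members of these families.

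Total counts were 8217516 to 21867101 per sample. The 4 mice with letters in their codes (OF5, OM8, YF5 and YM4) stood apart, because 63.9% to 73.9% of their counts fell on the ribosomal RNA gene CT010467.1 and their protein-coding counts were 1041386 to 1432506, against 7959314 to 11051045 in the other 5 epithelial samples. Normalized counts below are counts scaled to a common library size (CPM), with the size corrected by the trimmed mean of M-values (TMM), and 3 counts were worth 0.0872 to 1.25 normalized counts, most in those 4 samples. The layer labels were checked with markers. All 12 keratinocyte markers were higher in epithelium, and all 12 skeletal muscle markers were higher in stroma, where their sum was 42353 to 76538 normalized counts, against 169.5 to 1855 in epithelium. Smooth muscle and fibroblast markers separated less. Of 5 smooth muscle markers, 2 were higher in stroma and 3 were not called, with sums of 303 to 2051 in stroma and 333 to 835 in epithelium. Of 6 fibroblast markers, 3 were higher in stroma and 3 were not called, with sums of 415 to 1031 in stroma and 280 to 632 in epithelium. In bulk samples, fewer cells of a type and less RNA per cell cannot be told apart.

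Epithelial and stromal samples differed in most of the junction genes that could be tested. By the quasi-likelihood test of edgeR, adjusted over 16791 genes, 39 members were higher in epithelium and 8 were lower, while 8 did not pass an adjusted p of 0.05. This fit had no term for mouse, so both layers of O1, O2, O3, Y1 and Y3 were treated as independent samples. Over all genes tested, 26.1% were higher and 30.1% lower. In 34 members every epithelial sample exceeded every stromal sample, against 14.4% of all genes tested, and in 2 (Ctnna3 and Pkp2) every epithelial sample lay below, against 16.9%. The median log2 fold change was 2.91 over the 55 members tested and -0.05 over all genes tested. These counts concern only the 55 members with enough counts for the test. The filter can keep a gene that is high in just one layer, and 19 members (14 claudins and 5 connexins) did not pass it. Desmosomal cadherins had the highest median of the 6 roles, 7.19, and Ctnnb1 had the smallest difference of the called members, as the plot of log2 fold changes by role shows.

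**Figure D1:**
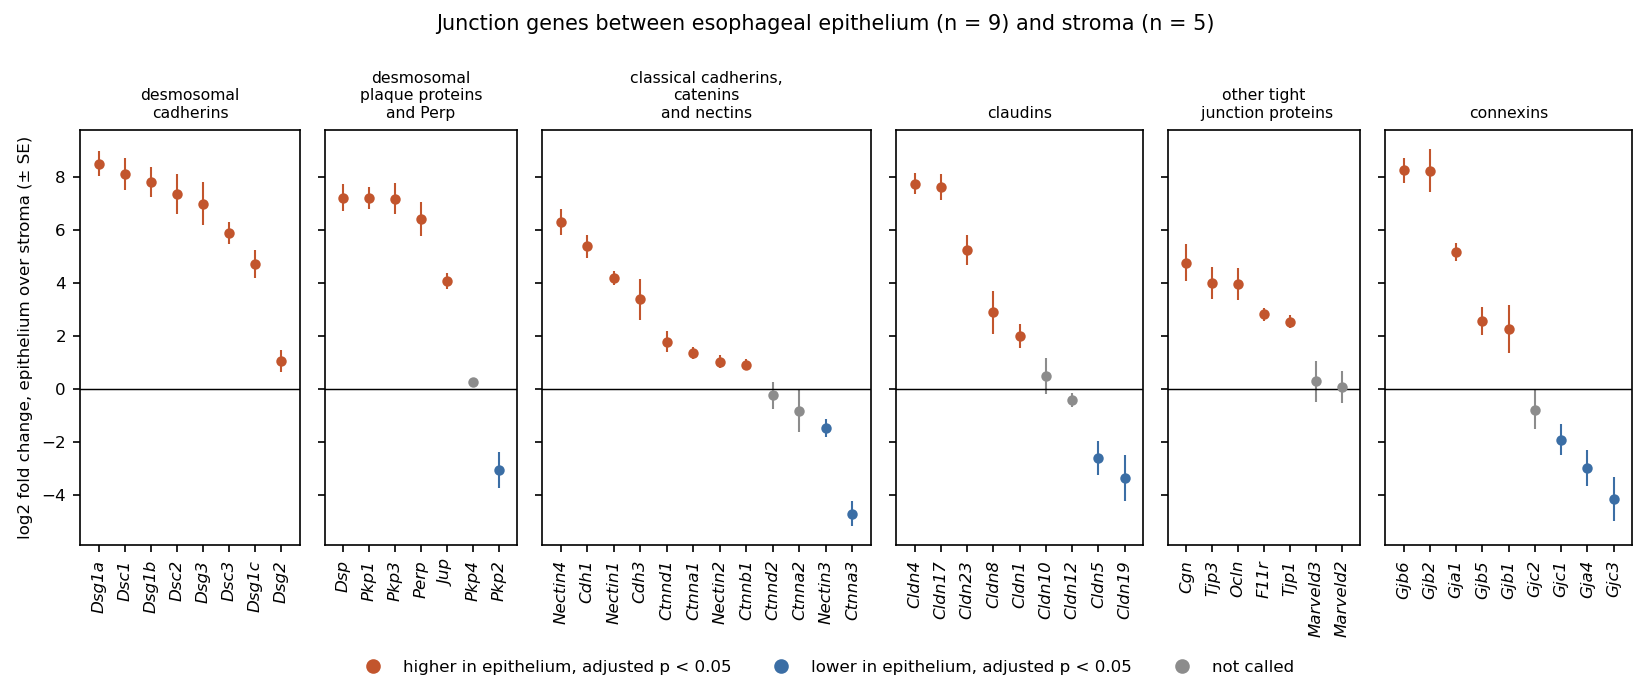
Log2 fold change of epithelium (n = 9) over stroma (n = 5) for 52 of the 55 junction genes tested, grouped by role, with the standard error as a bar and the call by edgeR as colour. The 8 desmosomal cadherins all lie above 0, with a median of 7.19, whereas claudins and connexins have members on both sides.

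Desmosomal cadherins were higher in epithelium in 8 of 8 cases. Dsg1b, a desmoglein, had 317, 432 and 496 normalized counts as the lowest, median and highest of the 9 epithelial samples. Its stromal values were 0.350 in O1, 5.09 in O2, 0.880 in O3, 1.03 in Y1 and 1.38 in Y3. The log2 fold change was 7.84 (SE 0.56, adjusted p = 6.98e-10), and the groups did not overlap. Dsc1, a desmocollin, ran from 312 through a median of 474 to 548 in epithelium. In stroma Dsc1 was at 0.0583, 4.03, 0.995, 1.24 and 1.30 in O1, O2, O3, Y1 and Y3, a log2 fold change of 8.13 (SE 0.62, adjusted p = 2.22e-09). Both genes were thus far lower in every stromal sample than in every epithelial one, and O2 had the highest stromal value of both.

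Dsg1a, another desmoglein, had a log2 fold change of 8.52 (SE 0.48, adjusted p = 1.4e-11). Its epithelial values were 162, 211 and 254 (lowest, median and highest), and its stromal values 0.292, 0.616, 0.0383, 1.08 and 0.867 in the same order of mice. Dsc2, Dsc3, Dsg3 and Dsg1c had log2 fold changes of 7.37, 5.90, 7.01 and 4.72. Dsg1a, Dsg1b and Dsg1c lie side by side on chromosome 18, and 35.0%, 48.9% and 29.6% of the 50-base windows of their transcripts also occur in other genes, mostly in each other. How such reads were assigned is not given in the sources used here, so the split between these 3 genes is uncertain.

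Dsg2, a desmoglein that simple epithelia and heart muscle also use, differed least. It had 3.79, 6.22 and 9.58 normalized counts in epithelium and 7.64, 1.56, 2.22, 0.877 and 2.25 in stroma. O1 stroma thus lay inside the epithelial range. Its log2 fold change of 1.06 (SE 0.40, adjusted p = 0.0291) lost the call when mouse O2, O3, Y1 or Y3 was left out (0.85, 0.97, 0.83 and 0.93 on the log2 scale, adjusted p = 0.116, 0.0706, 0.0995 and 0.105).

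Plaque genes were higher in epithelium in 5 of 7 cases. Desmoplakin (Dsp), which ties the plaque to keratin, was the most counted member. Its epithelial samples had 2174, 2436 and 3344 normalized counts (lowest, median and highest), and its stromal samples 15.6 in O1, 40.6 in O2, 13.1 in O3, 8.41 in Y1 and 6.22 in Y3. The log2 fold change was 7.24 (SE 0.51, adjusted p = 2.62e-10). Plakophilin 1 (Pkp1), which clusters desmosomal cadherins, had 391, 567 and 743 in epithelium and 2.80, 5.38, 5.85, 3.51 and 1.42 in stroma, a log2 fold change of 7.23 (SE 0.41). Perp, a membrane protein needed for desmosome assembly in stratified epithelia, had 424, 695 and 759 in epithelium. Stromal Perp spread widely, at 0.583 in O1, 18.9 in O2, 9.26 in O3, 4.44 in Y1 and 2.88 in Y3, still far below every epithelial sample (log2 fold change 6.43, SE 0.65). Pkp3 and Jup, which encodes plakoglobin, had log2 fold changes of 7.20 and 4.09.

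Plakophilins 2 and 4 did not follow this pattern. Pkp2, the plakophilin of heart muscle and simple epithelia, was lower in epithelium. Its values were 0, 0.203 and 0.707 there (lowest, median and highest) and 4.03, 1.81, 1.22, 1.55 and 2.64 in O1, O2, O3, Y1 and Y3 stroma, without overlap (log2 fold change -3.05, SE 0.69, adjusted p = 0.000799). Pkp4, a relative also found at adherens junctions, had 17.4, 25.4 and 30.6 in epithelium and 15.3, 26.3, 16.1, 17.8 and 25.8 in stroma. These ranges overlapped, and the log2 fold change was 0.26 (SE 0.18, adjusted p = 0.238).

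**Figure D2:**
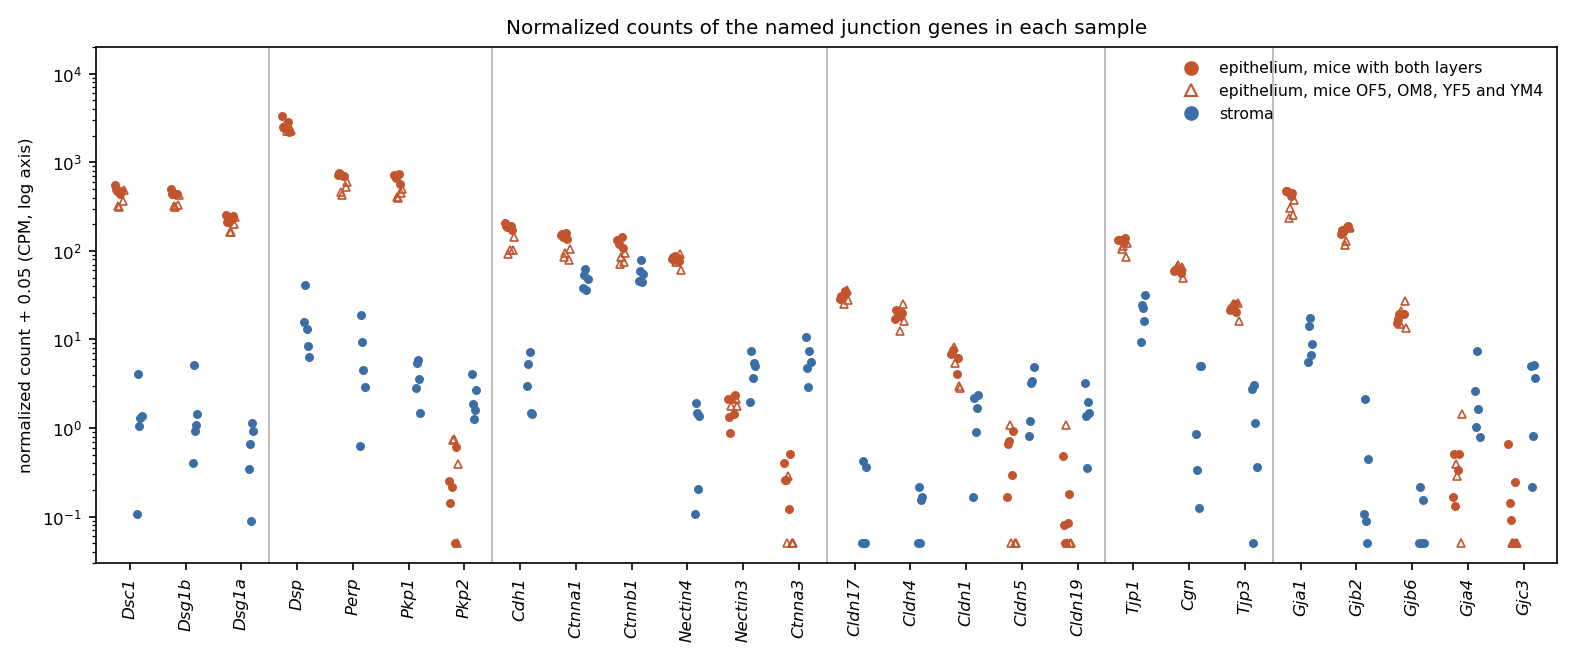
Normalized counts plus 0.05 on a log axis of 26 named junction genes, ordered by role and, within a role, by epithelial mean. Each point is a sample. Triangles are the epithelial samples of the 4 letter-coded mice, and the stromal points of Pkp2 and Ctnna3 lie above all epithelial points.

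Adherens junction genes were mixed, with 8 of 12 higher in epithelium, 2 lower and 2 not called. Cdh1, encoding E-cadherin, had 92.7, 169.9 and 207 normalized counts in epithelium (lowest, median and highest). In stroma Cdh1 was at 2.92 in O1, 5.26 in O2, 7.11 in O3, 1.44 in Y1 and 1.38 in Y3. No sample overlapped, and the log2 fold change was 5.40 (SE 0.44, adjusted p = 4.43e-09). Nectin4, a nectin of stratified epithelia, had 60.9, 80.5 and 92.9 in epithelium and 0.0583, 1.89, 1.42, 0.155 and 1.30 in stroma (log2 fold change 6.31, SE 0.50). Nectin1 and Cdh3, which encodes P-cadherin, had log2 fold changes of 4.20 and 3.40.

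Some members of this group differed less, among them the nectin Nectin2 (log2 fold change 1.04, SE 0.24) and the catenins that link the receptors to actin. Ctnna1 had 79.6, 136 and 157 normalized counts in epithelium, and 38.0, 53.5, 62.8, 36.0 and 47.5 in O1, O2, O3, Y1 and Y3 stroma (log2 fold change 1.37, SE 0.22, adjusted p = 1.8e-05). Ctnnb1, encoding beta-catenin, had 70.6, 109 and 142 in epithelium and 45.4, 59.5, 78.3, 44.3 and 54.1 in stroma. Its log2 fold change was 0.93 (SE 0.21, adjusted p = 0.000719), with O3 stroma inside the epithelial range. Of its exon bases, 15.1% overlap Mir7090 on the same strand and Ulk4 on the other. Scaled by total counts only, which moves the median of all genes to -0.58, Ctnna1 and Ctnnb1 were at 0.96 and 0.51 and lost the call. Ctnnd1 (1.80) is uncertain, because 56.7% of its 50-base windows are shared with Gm28635.

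Other members of the same family were higher in stroma. Ctnna3, encoding alpha-T-catenin, known from heart muscle and testis, had 0, 0.207 and 0.458 in epithelium. Its stromal values were 10.7 in O1, 4.68 in O2, 2.87 in O3, 7.38 in Y1 and 5.48 in Y3, which gave a log2 fold change of -4.71 (SE 0.48, adjusted p = 4.83e-08). Nectin3 had 0.828, 1.73 and 2.32 in epithelium and 1.93, 7.31, 3.63, 5.42 and 5.004 in stroma, with O1 inside the epithelial range (log2 fold change -1.46, SE 0.34, adjusted p = 0.00115). Ctnna2 and Ctnnd2 were low in both layers and not called.

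Among the claudins, 9 of 23 could be tested, and 5 of these were higher in epithelium, 2 lower and 2 not called. Cldn17 and Cldn4 stood out. Cldn17, a channel-forming claudin, had 25.0, 31.2 and 35.8 normalized counts in epithelium, and was at 0 in O1, O3 and Y1 stroma, 0.370 in O2 and 0.315 in Y3. The log2 fold change was 7.64 (SE 0.47, adjusted p = 6.83e-11). Cldn4, a barrier-forming claudin, had 12.3, 18.3 and 25.0 in epithelium, and was at 0 in O1 and O3, 0.164 in O2, 0.103 in Y1 and 0.118 in Y3 stroma (log2 fold change 7.76, SE 0.40). Cldn1, which makes the skin barrier tight, was lower than both in epithelium, at 2.77, 6.12 and 8.27. Its stromal values were 0.117, 2.14, 0.842, 1.65 and 2.32, below all epithelial samples (log2 fold change 2.01, SE 0.45, adjusted p = 0.00082). Cldn23 and Cldn8 had log2 fold changes of 5.24 and 2.91.

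Cldn5 and Cldn19 were lower in epithelium. Cldn5, the main claudin of blood vessel endothelium, had 0, 0.248 and 1.03 in epithelium and 0.758, 1.15, 3.14, 3.30 and 4.89 in O1, O2, O3, Y1 and Y3 stroma. The groups overlapped by the O1 value, and the log2 fold change was -2.59 (SE 0.64, adjusted p = 0.00185). Cldn19, found in Schwann cells and kidney, had 0, 0.0303 and 1.03 in epithelium and 3.21, 1.31, 0.306, 1.91 and 1.42 in stroma (log2 fold change -3.35, SE 0.87, adjusted p = 0.00259). Blood endothelium markers were higher in stroma in 5 of 6 cases, with a summed level of 40.1 to 90.2 normalized counts against 10.001 to 21.9 in epithelium, and none of the 6 was at 0 in any sample. Schwann cell markers were higher in stroma in 5 of 6 cases, with sums of 34.9 to 143.7 in stroma and 27.6 to 49.4 in epithelium. Prx was at 0 in O1 stroma, and at least 1 of the 6 was at 0 in each of the 4 letter-coded epithelial samples. The part of these cell types in the claudin values was not tested.

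The 14 claudins left out by the filter were low in epithelium, while some had counts in single stromal samples. Cldn22 had no count in any sample. Its exons overlap Wwc2 on the other strand over 100% of their bases, and 100% of its windows also occur in Wwc2 or Cldn24. How such reads were assigned is not given, so the absence of counts sets no upper limit on the level of Cldn22. Cldn24 shares 68.9% of its windows with Cldn22 and Wwc2. In epithelium the highest value of any of the 14 was 0.417 (Cldn2), under the floor of the 4 shallow samples. Above 1 normalized count in some stromal sample were Cldn15 (up to 5.83), Cldn18 (3.29), Cldn3 (2.30), Cldn6 (1.81) and Cldn11 (1.29). Cldn3 and Cldn7, common claudins of simple intestinal and airway epithelia, were at most 0.345 and 0.0828 in epithelium.

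Other tight junction genes were higher in epithelium in 6 of 8 cases. Tjp1, encoding ZO-1, had 84.2, 127 and 139 normalized counts in epithelium, and 9.28, 24.4, 22.6, 16.1 and 31.9 in O1, O2, O3, Y1 and Y3 stroma (log2 fold change 2.54, SE 0.25, adjusted p = 2.6e-08). Tjp3, encoding ZO-3, had 15.9, 22.8 and 25.8 in epithelium, and in stroma 2.68, 0, 2.98, 1.08 and 0.315 (log2 fold change 4.01, SE 0.60). Neither of these scaffold genes overlapped between the layers. Cgn, encoding the cytoplasmic scaffold cingulin, had 49.2, 62.3 and 68.6 in epithelium. Its stromal values split into 0.817, 0.288 and 0.0765 in the aged mice O1, O2 and O3 and 4.95 and 4.96 in the young mice Y1 and Y3 (log2 fold change between layers 4.78, SE 0.71, adjusted p = 4.65e-05). Ocln (occludin) and F11r (junctional adhesion molecule A) had log2 fold changes of 3.96 and 2.82. The tricellular junction gene Marveld2 was not called (0.08, adjusted p = 0.922), but was called when mouse O3 was left out (1.55, SE 0.55, adjusted p = 0.0233). Marveld3 was not called either (0.29).

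Connexins were higher in epithelium in 7 of 11 tested cases, lower in 3 and not called in 1. Gja1, encoding connexin 43, was the most counted connexin, at 237, 419.8 and 473 normalized counts in epithelium. Stromal values were 5.48, 14.3, 17.4, 6.66 and 8.90 in O1, O2, O3, Y1 and Y3 (log2 fold change 5.18, SE 0.35, adjusted p = 1.26e-10). Gjb2, encoding connexin 26, had 117, 171 and 191 in epithelium, and 0.0583 in O1, 2.05 in O2, 0.0383 in O3, 0 in Y1 and 0.394 in Y3 stroma (log2 fold change 8.25, SE 0.82). Gjb6, encoding connexin 30, had 13.5, 19.2 and 27.1 in epithelium, and was at 0 in O1, O3 and Y3, 0.164 in O2 and 0.103 in Y1 (log2 fold change 8.27, SE 0.46). None of these 3 connexins overlapped between layers. Gjb5 had a log2 fold change of 2.58. Gjb1 was at 2.28 (SE 0.90, adjusted p = 0.0365), but at an adjusted p of 0.0923, 0.0872 and 0.107 without mouse O1, O3 and Y1, and at 0.0568 with mouse as a block.

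Connexins of vessels and nerves were on the other side. Gja4, encoding connexin 37 of endothelium, had 0, 0.283 and 1.38 in epithelium and 2.57, 0.986, 7.31, 1.5996 and 0.749 in stroma, with overlap (log2 fold change -2.98, SE 0.67, adjusted p = 0.000756). Gjc3, a connexin of myelinating glia, was at 0 in the median epithelial sample and at most 0.610 there. Its stromal values of 4.90, 0.164, 0.765, 5.06 and 3.66 overlapped that range in O2 (log2 fold change -4.14, SE 0.84, adjusted p = 0.000291). Gjc1, encoding connexin 45 of smooth muscle and heart conduction tissue, was at -1.91 (SE 0.58, adjusted p = 0.00842), but at -1.47 with an adjusted p of 0.224 in the 10 samples with mouse as a block. The endothelium and Schwann cell marker sums given with the claudins were also higher in most stromal samples than in epithelium. Within stroma the Schwann cell sums were 34.9, 75.4, 113.1, 143.7 and 110.7 in O1, O2, O3, Y1 and Y3, so that O1 had the lowest sum beside a high Gjc3 value. The part of these cells was not tested. The 5 connexins that did not pass the filter had values of at most 2.10 (Gja5 in O3 stroma).

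Promoter sequences are shown for called members that hold one of 3 motifs close to their start or, for the first motif, anywhere in the stretch searched. The RefSeq promoters of build GRCm38.p6 matched 47 of the 74 members, with 67 promoters, and the 250 bases before each start were searched on both strands. The motif AACCNGTT, bound by grainyhead-like factors, was present in 1.79% of all 32851 promoters, in 2 of 26 promoters of the 19 matched members higher in epithelium (Cgn and Gjb6), and in 1 of 9 promoters of the 6 matched members lower there (Cldn5). Capitals mark the motif, and each sequence is written 5′ to 3′ on the strand of its gene. The lines give Cgn at chr3:94786484-94786531 (minus strand), Gjb6 at chr14:57133828-57133861 (minus strand) and Cldn5 at chr16:18776807-18776846 (plus strand).
Cgn: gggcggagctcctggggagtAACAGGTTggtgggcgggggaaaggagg
Gjb6: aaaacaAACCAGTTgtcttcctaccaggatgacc
Cldn5: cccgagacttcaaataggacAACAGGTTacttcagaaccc
The motif begins 29, 244 and 20 bases before the start of Cgn, Gjb6 and Cldn5. It therefore occurs in genes that were higher and in a gene that was lower in epithelium.

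The E-box CAGGTG, which Snail and Zeb repressors can bind, was present in 17.2% of all promoters. It was found in 8 of 26 promoters of the members higher in epithelium (7 genes), in 0 of 9 of those lower and in 2 of 11 of those not called. Shown are the copies nearest to a gene start, in Gjb2 at chr14:57104703-57104731, Cldn4 at chr5:134946935-134946968 and Tjp3 at chr10:81291268-81291304, all minus-strand genes of GRCm38.p6. Capitals mark the E-box, which reads CACCTG where it lies on the opposite strand.
Gjb2: ttaaaaggcgccgcggccaaCAGGTGtcc
Cldn4: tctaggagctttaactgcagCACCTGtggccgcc
Tjp3: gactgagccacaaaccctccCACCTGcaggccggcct
These copies begin 9, 14 and 17 bases before the start. The AP-1 motif TGANTCA was in 6.75% of all promoters and in 3 of the 26, those of Cldn4, F11r and Gja1. In Gja1 (connexin 43), at chr10:56377261-56377299 on the plus strand of GRCm38.p6, it begins 19 bases before the start.
Gja1: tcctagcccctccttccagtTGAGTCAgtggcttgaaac
In the F11r promoter an E-box and an AP-1 motif begin 122 and 109 bases before the start. None of the motifs in the lines above overlaps another of the 3 motifs. A match is a description of the letters, and no binding was measured.

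All 10 epithelial transcription and splicing factors that were listed beside the junction genes were higher in epithelium (median log2 fold change 5.70). Ehf had 204 ± 34.6 (SD, n = 9) against 1.02 ± 0.384 normalized counts (SD, n = 5), and Grhl3, a grainyhead-like factor, 152 ± 19.5 against 1.93 ± 1.88. Repressors of Cdh1 did not move one way. Snai2 was higher in epithelium (8.77 ± 3.71 against 0.217 ± 0.409), whereas Zeb1 (12.5 ± 3.10 against 57.3 ± 9.17) and Zeb2 (19.0 ± 4.08 against 73.3 ± 12.7) were lower, and 2 of the 5 tested were not called.

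Levels of different members were compared per kilobase of exon. Perp (319.6 ± 63.3 normalized counts per kb, SD, n = 9) and Dsp (262 ± 38.7) led in epithelium. They were followed by Pkp1 (114 ± 27.9), Dsg1b (102 ± 16.5), Dsc1 (86.2 ± 16.7), Gjb2 (68.0 ± 10.9) and Jup (55.1 ± 12.2). In this order the neighbours Dsp and Pkp1, Dsc1 and Gjb2, and Gjb2 and Jup differed by more than the larger SD of the pair, and the other neighbours did not. Dsg1a, Gja1, Cdh1 and Dsc2 came next at 37.5 to 33.6 and could not be ordered. Stroma had another order, led by Ctnnb1 (10.8 ± 2.66, SD, n = 5) and Ctnna1 (7.40 ± 1.73), with Perp at 3.69 ± 3.71, Pkp4 at 3.56 ± 0.941 and Jup at 3.22 ± 1.27.

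Composition within a family does not depend on the scaling between libraries, so 6 shares were tested by exact permutation of 9 against 5 samples (two-sided, smallest possible p = 0.000999), with adjustment over the 6. The shares come from the same counts as the gene tests above. They describe those differences in another form and are not separate support for them. Pkp4 made up 2.59% to 3.37% of plakophilin counts per kb in epithelium. Its share in stroma was 67.3% in O1, 73.2% in O2, 66.8% in O3, 69.7% in Y1 and 81.9% in Y3. The means were 2.93% ± 0.260 (SD, n = 9) and 71.8% ± 6.18 (SD, n = 5; exact permutation, adjusted p = 0.001998). Pkp4 was thus the main plakophilin RNA in every stromal sample and a small one in every epithelial sample, although its own level was not called different.

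Dsg2 was 0.301% to 0.814% of the desmogleins in epithelium and 61.4%, 6.99%, 52.8%, 11.7% and 23.1% in O1, O2, O3, Y1 and Y3 stroma (exact permutation, adjusted p = 0.001998). Cldn5 was 0% to 1.68% of the claudins in epithelium. In stroma it was 13.3%, 20.5%, 29.8%, 21.4% and 31.3% (exact permutation, adjusted p = 0.001998), with a mean of 23.3% per kb and 14.1% when counts were not divided by length. Epithelial claudin RNA was 60.3% ± 1.92 (SD, n = 9) Cldn17 and 23.4% ± 2.03 Cldn4. Gja1 had a larger share of the connexins in epithelium (27.2% ± 3.93) than in stroma (16.4% ± 6.18; exact permutation, adjusted p = 0.0075), with overlapping ranges. Counted without length, the shares of Gja1 were 62.6% and 40.2%. Gjb2 was 49.98% ± 4.10 of epithelial connexin counts per kb.

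Cdh3 as a share of Cdh1 and Cdh3 was 5.78% ± 1.54 in epithelium. In stroma it was 0%, 4.66% and 0% in O1, O2 and O3 and 66.8% and 50.3% in Y1 and Y3, and the layers were not told apart (exact permutation, adjusted p = 0.261). The share of Dsc2 among desmocollins was 23.4% ± 4.12 and 21.0% ± 17.1 (exact permutation, adjusted p = 0.668).

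**Figure D3:**
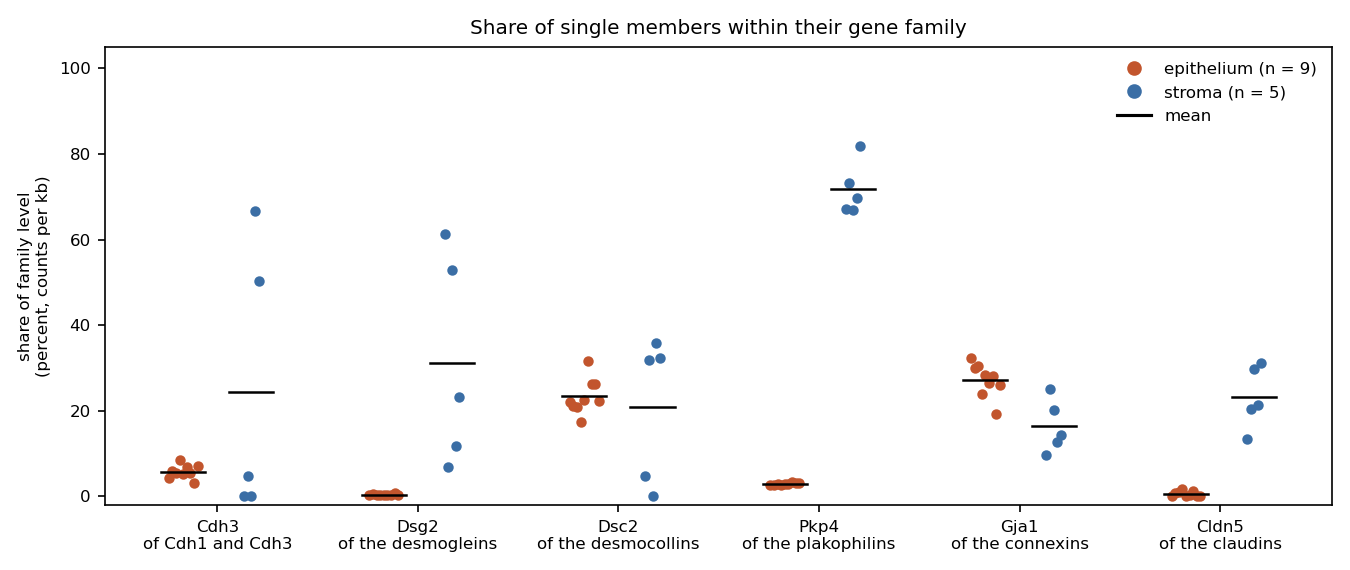
Share of one member in its family, in percent of counts per kb, for each epithelial (n = 9) and stromal (n = 5) sample, with the mean as a line. Pkp4, Dsg2 and Cldn5 have shares in stroma above every epithelial sample, and the stromal share of Cdh3 is split into 3 values under 5% and 2 of 50.3% and 66.8%.

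The stromal level as a percentage of the epithelial mean was set beside that of the 12 keratinocyte markers, which ranged from 0.4001% to 21.7% with a median of 1.24%. For the 39 members higher in epithelium it ranged from 0.272% (Dsg1a) to 52.7% (Ctnnb1), with a median of 3.43%. For 32 of them it was at or below the highest marker, a limit set by a single marker far above the marker median. Among the 7 above were Ctnnb1, Nectin2, Dsg2, Ctnna1, Ctnnd1 and Cldn1. How much of the stromal signal of the others came from epithelial cells in the stromal samples was not tested.

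Other genes of the same junctions also fell on both sides. Of 15 polarity and scaffold genes, 10 were higher in epithelium and 3 lower (median log2 fold change 2.35). The largest were the plakins envoplakin (Evpl, 1109 ± 171 against 9.70 ± 8.09) and periplakin (Ppl, 1905 ± 201 against 43.1 ± 12.2), which bind keratin filaments at desmosomes of stratified epithelia. Mpdz (9.81 ± 2.05 against 67.2 ± 14.5) and Cgnl1, the relative of cingulin (14.4 ± 4.93 against 34.7 ± 11.8), were lower. Of 15 other junction membrane genes tested, 4 were higher and 10 lower (median -1.23). Epcam (22.7 ± 6.38 against 0.428 ± 0.5495) was among those higher in epithelium. Cdh15, the cadherin of muscle cells (0.0701 ± 0.0883 against 7.13 ± 1.87), and Cdh2, encoding N-cadherin (0.284 ± 0.310 against 2.24 ± 1.46), led those lower. Panx1, a channel protein related to connexins in its topology, was also lower (2.01 ± 0.627 against 9.56 ± 2.56).

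Age within epithelium was fitted with a term for letter-coded against digit-coded mice. No member was called among 50 tested (edgeR, adjusted p under 0.05), and 2 of 15859 genes were, which is 0.0126%. At an unadjusted p under 0.05 there were 3 members, against 3.21% of all genes tested. DESeq2 called Dsc2 and Gjb2, both lower in aged mice, and edgeR without a filter called Dsc2. A member that was not called may still differ between the ages, because small changes can be missed with so few mice.

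Dsc2 had the smallest p. Normalized within epithelium, it was at 156, 130.0, 124, 74.2 and 99.4 in the aged mice O1, O2, O3, OF5 and OM8, and at 208, 170.1, 137 and 159.7 in the young mice Y1, Y3, YF5 and YM4. Only O1 reached into the young range. The log2 fold change of aged over young was -0.60 (SE 0.14, unadjusted p = 0.000439, adjusted p = 0.381), with an adjusted p of 0.0198 by DESeq2 and 0.0412 without the filter. Within the 5 digit-coded mice it was -0.47 and within the 4 letter-coded mice -0.72.

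Gjb2 was at 116, 127, 121, 101 and 108 in the aged mice and at 138, 146, 152 and 164 in the young mice, in the same order. The ages did not overlap, and the log2 fold change was -0.39 (SE 0.13, unadjusted p = 0.00603, adjusted p = 0.9996, DESeq2 adjusted p = 0.0498). It was -0.22 in the digit-coded and -0.54 in the letter-coded mice. The share of all genes without overlap between the ages in epithelium is not given here. Cldn1 went the other way, at 5.16, 5.21, 5.74, 7.15 and 4.55 with age and at 3.05, 4.66, 2.46 and 2.46 in the young (log2 fold change 0.66, SE 0.23, unadjusted p = 0.00974). Only OM8 fell into the young range. Dsg3 and Dsg1a followed at -0.29 and -0.25, with unadjusted p of 0.0533 and 0.0802.

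**Figure D4:**
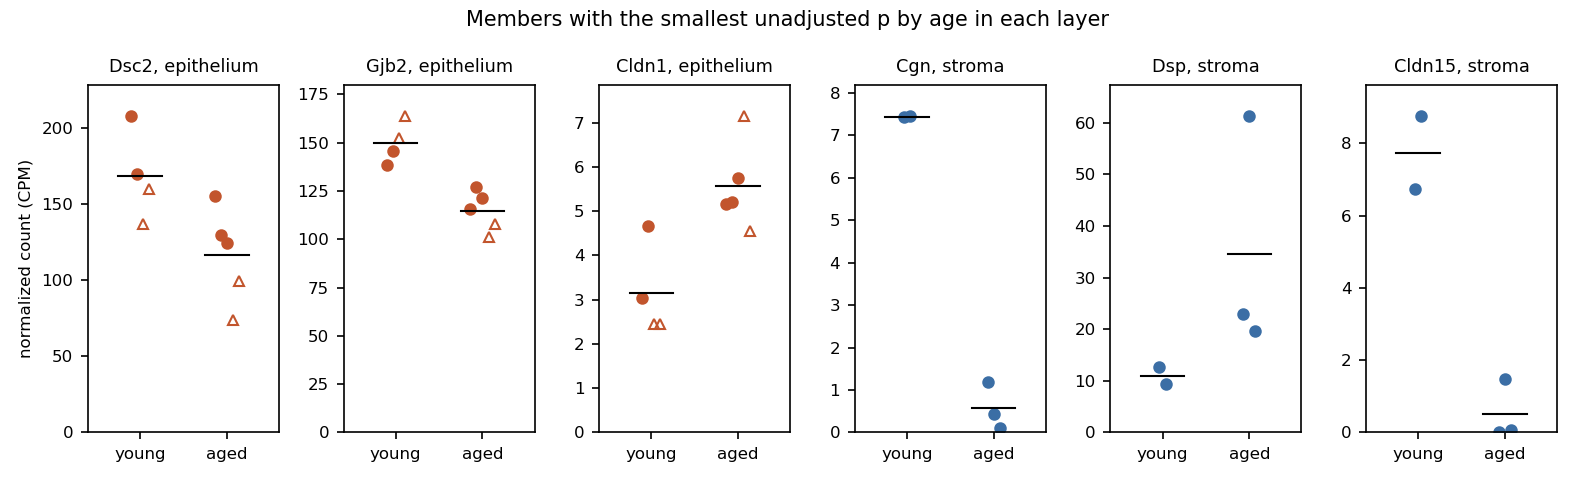
Normalized counts, scaled within a layer, of the 3 junction genes with the smallest unadjusted p by age in epithelium (5 aged, 4 young) and in stroma (3 aged, 2 young). Points are mice, triangles are letter-coded mice, and lines are means. Gjb2 in epithelium and the 3 genes in stroma have no overlap between ages, but none is called after adjustment by edgeR. The genes were picked for a small p, and the share of all genes without overlap is not given.

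Age within stroma was compared in 3 aged and 2 young mice. None of the 53 members tested was called by edgeR or by DESeq2, and of all 21323 genes tested 0% were called by edgeR. Unadjusted, 5 members had a p under 0.05 by edgeR (7 by DESeq2), against 3.64% of all genes. Cgn was at 1.198, 0.434 and 0.115 normalized counts in O1, O2 and O3 and at 7.43 and 7.45 in Y1 and Y3 (log2 fold change of aged over young -3.68, SE 1.10, unadjusted p = 0.00751). Dsp was at 22.9, 61.3 and 19.7 in aged and 12.6 and 9.35 in young stroma (1.66, SE 0.52, unadjusted p = 0.00986). Cldn15 was at 0, 1.49 and 0.0575 in aged and 6.74 and 8.76 in young stroma (-3.87, SE 1.46, unadjusted p = 0.0251). Cgn and Cldn15 thus had their higher values in the young mice and Dsp in the aged mice, without overlap, but none passed the adjusted test. These 3 genes were picked for their small p, and 3 against 2 mice separate easily by chance. The share of all genes without overlap between these ages is not given here. A test that is not passed with so few mice does not show that the ages were alike. Cdh1 (1.85) and Cldn11 (-5.42) were the other 2 members with an unadjusted p under 0.05.

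Other measures of these 5 stromal samples stand beside the junction values. Genes with at least 1 count numbered 20115 to 25497 in the aged and 34224 and 41308 in the young stromal samples. The summed differentiated keratinocyte markers were 36.0 to 434.7 in aged and 35.3 and 66.1 in young stroma, and the basal ones 36.8 to 75.1 and 34.9 and 38.1. Their part in the junction values was not tested.

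Whether the age difference itself differed between layers was tested as an interaction in the 10 samples from mice that gave both layers. edgeR called none of 60 members, and 0% of 22771 genes, at an adjusted p of 0.05. Unadjusted, 7 members had a p under 0.05, against 4.3% of all genes. Cgn had the smallest p, with a log2 difference of the age changes (epithelium minus stroma) of 3.82 (SE 0.64, unadjusted p = 8.8e-05, adjusted p = 0.200). Cdh3 followed with 4.35 (SE 1.06, adjusted p = 0.752). DESeq2 called Cgn (adjusted p = 6.32e-06) and Cdh3 (adjusted p = 0.00814), while edgeR with mouse as a block gave Cgn an adjusted p of 0.775. Normalized within epithelium, Cgn ranged from 44.5 to 57.6 in aged mice and from 42.5 to 55.2 in young mice, with overlap. The 17.2% of Cgn windows shared with other genes limit these values as well. Normalized within stroma, Cdh3 was at 0, 0.372 and 0 in aged and 4.18 and 2.01 in young stroma.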

How the data were processed

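Bulk RNA-Seq of 9 epithelial and 5 stromal samples was analysed. The authors deposited whole-number counts per gene symbol, not normalized, made by alignment to GRCm38.p6 with Rsubread and counting with featureCounts. The settings for strand and for reads matching several genes are not given in the sources used here. The labels gave layer, age and mouse, and no sample was left out. Each sample is 1 mouse, and epithelium and stroma of O1, O2, O3, Y1 and Y3 come from the same animals.

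The whole table was fitted in edgeR 4.0.16 under R 4.3.3 (TMM, filterByExpr with a minimum count of 10, robust quasi-likelihood). The fits between layers and for the interaction had no term for mouse, so the layers of a mouse were treated as independent. Mouse as a block was fitted as an alternative. Genes were called at a Benjamini-Hochberg adjusted p under 0.05. The standard error is the log2 fold change divided by the square root of F. DESeq2 1.42.0 gave no adjusted p for 6 of the 55 members between layers. Shares were tested with scipy 1.17.1. The fits were tested on simulated data with 200 changed genes. Of these, the fit by age in stroma recovered few and the interaction none, so the absence of calls there is weak evidence. The fits between layers and by age in epithelium also missed many of the smaller changes, so a member not called there may still differ. Deviations of the layers from their age means correlated over 22771 genes at 0.111, 0.0390 and 0.0976 within O1, O2 and O3. Between different aged mice they ran from -0.0964 to 0.00409. Within Y1 and within Y3 the value was 0.101, which is 1 number because deviations of 2 mice mirror each other. Values between mice are tied to those within, because deviations around a mean cancel out.

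Every stromal value, with the lowest, median and highest epithelial value, is given for the 3 members of each role with the highest mean. The same holds for the 2 called members of each role with the largest change in each direction. Values in every sample are given for the 3 members with the smallest p by age in each layer. Other members are named with summary values, and some genes are not reported here. The members, roles and lists were chosen with earlier results of these data known. Floors cover counting error only, and tests the spread between mice.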

Additional observations from a re-analysis of the deposited data

Results flagged for a closer look

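Of 52 groups of samples of the named genes between the layers, 2 held 1 sample farther from the rest than Dixon's 95% limit on the log2 scale (normalized count plus 0.5), and chance alone marks about 1 in 20 groups. Gjc3 in epithelium was at 0.610 in O1, against 0 to 0.196 in the other 8 samples. Gja4 in epithelium was at 1.38 in YM4, against 0 to 0.458 in the other 8. In YM4 3 counts are worth 1.04 normalized counts.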

How the results depend on the processing

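Between layers, 39 members were higher and 8 lower in epithelium, and over 19 alternatives none of these 47 changed direction, while 35 were called wherever an adjusted p was given. Leaving out each mouse in turn gave 37 to 39 higher and 7 to 9 lower. With at least 10 counts in every sample, 17 members could be tested, of which 15 were higher and 0 lower. Without a filter, 13 were lower. With only the 4 letter-coded epithelial samples, a choice made after seeing the data, 4 were lower, and Nectin3 (-1.24), Cldn19 (-2.62), Gja4 (-2.36), Gjc1 (-2.27), Nectin2 (0.88) and Dsg2 (0.94) were not called. With total counts only, 31 were higher, and among others Ctnna1 (0.96), Ctnnb1 (0.51), Ctnnd1 (1.38), Cldn1 (1.53), Nectin2 (0.59), Dsg2 (0.61) and Gjb1 (1.83) were not called. In the 10 samples of the 5 mice, 40 were higher (Pkp4 now among them, 0.44) and 7 lower without the block, and 38 and 7 with mouse as a replicate block, where Gjb1 and Gjc1 were not called. Gjc1 was not called without the block either (-1.75, adjusted p = 0.0503). By age in epithelium, DESeq2 called 2 members and edgeR without a filter 1, against 0 as reported. In the interaction DESeq2 called 2, and edgeR with the mouse block 0. By age in stroma each alternative called 0. The causes of these changes were not tested. The shares kept their calls in counts not divided by length and in the 10 samples, where the layers of a mouse were treated as independent and no paired test was made. Depth limits the low members: 3 counts are worth up to 1.25 normalized counts in the letter-coded epithelium.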

Other observations

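The 4 letter-coded epithelial samples had lower levels of many junction genes than the other 5. Over the 39 members higher in epithelium, their mean was 37.6% (Cldn8) to 105.7% (Gjb6) of that of the digit-coded samples, with a median of 75.7%. In 15 of the 39 all letter-coded samples lay below all digit-coded ones, and in 0 above. The share of all genes that separate in this way is not given here. The counts therefore do not set the junction genes apart from other genes. Among the 15 were Cdh1 (92.7 to 144 against 169.9 to 207 normalized counts), Ctnna1 (79.6 to 106 against 136 to 157), Pkp1 (391 to 495 against 567 to 743) and Gja1 (237 to 379 against 419.8 to 473). Tjp1 and F11r were also among the 15, at 80.4% and 66.8% of the digit-coded mean, whereas the ranges overlapped for Cgn (103.5%), Tjp3 (103.4%), Cldn17 (95.2%) and Cldn4 (92.1%). The keratinocyte markers were lower in the same samples, with summed levels of 17116 to 27638 against 41264 to 53232 for the differentiated and 882 to 1502 against 1778 to 2556 for the basal markers. These mice also differ from the others in depth, in the share of CT010467.1 and in having no stroma, and these cannot be told apart. No test was made.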
